A study of Macaca fascicularis with 23 samples.

Results

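The genes described here are 52 genes of cynomolgus monkey (Cm, Macaca fascicularis) pluripotent stem cells (PSCs) that were higher in the naïve-like condition than in both the primed and the differentiated condition. They were chosen on these values from 8415 analysed genes, of which 2776 had a level above 4 in log2(RPM + 1) in at least 1 of 21 PSC libraries, where RPM is the number of reads scaled to a library of 1000000 reads. For each of 7 cell lines, the primed level and the differentiated level were each subtracted from the naïve-like level. A gene was taken when both mean differences over the lines were at least 1 and both differences were positive in at least 6 of 7 lines. Of the 2776 expressed genes, 111 had a mean difference of at least 1 from primed cells, 145 from differentiated cells and 60 from both, and 52 of the 60 also met the rule on lines, or 1.87% of the expressed genes. The 3 genes named as markers of this pattern, C1H1orf115, MARC2 and SH3BGRL2, were all among the 52.

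Each line gave 1 library in each condition, measured by SC3-seq, a method in which only the 3′ end of each amplified cDNA is sequenced. The embryonic stem cell (ESC) lines were CMK6 and TRSK (male) and CMK9 (female), and the 4 induced PSC (iPSC) lines came from 1 female foetus and share a donor, iPS-L3 and iPS-L6 from its liver, iPS-S6 and iPS-S12 from its stomach (the labels write L3, L6, S6 and S12). Reprogramming used episomal vectors for L-MYC, LIN28, KLF4, SOX2, OCT3/4 and a hairpin against p53. Primed cells grew with bFGF in KSR medium. Naïve-like cells grew in K5cLD medium, which holds 5 chemicals (Gö6983, forskolin, kenpaullone, CHIR99021 and SB590885), LIF and doxycycline (Dox). They carried PiggyBac transgenes from which Dox induces human KLF2 and NANOG, beside an EOS-GFP-puroR reporter. A DsRed transgene was also introduced into ESC lines and was left out in the conversion of the iPSC lines. Differentiated cells were the same transgenic cells in K5c medium, which has the same 5 chemicals but neither LIF nor Dox. The primed cells were sampled as the lines stood before this conversion, so the medium, the transgenes and their induction cannot be told apart in the comparison with primed cells. Libraries are numbered condition after condition, and any effect of the order of preparation cannot be told apart from the condition either. The remaining 2 libraries came from the cultured liver and stomach cells, with 1 library each.

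Naïve and primed pluripotency are states of the early and the later epiblast, respectively. They differ in the signals that maintain them, in enhancer use and in metabolism. LIF acts through the LIFR and GP130 receptors on STAT3, forskolin raises cyclic AMP, CHIR99021 and kenpaullone inhibit GSK3 and so stabilise β-catenin, Gö6983 inhibits protein kinase C, and SB590885 inhibits BRAF upstream of ERK. KLF2 and NANOG are transcription factors of the naïve network. By their mean over lines, the 52 genes were high in K5cLD medium and lower in K5c medium, although not every gene fell in every line. This is distinct from the pattern of genes that stay high once LIF and Dox are gone. KLF2 and NANOG themselves were not analysed here.

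The PSC libraries held 861000 to 7986000 reads, as derived from the step of 1 read in the values, and 3 reads in a library corresponded to 0.376 to 3.49 RPM. Values below that floor were not detectable at this depth, and the floor covers counting error only. The deepest library was primed CMK9 (7986000 reads) and the shallowest was primed iPS-L6 (861000 reads). The housekeeping gene PPIA was level, with a log2(RPM + 1) of 10.0 ± 0.0996 in the primed group, 10.0 ± 0.0810 in the naïve-like group and 9.98 ± 0.128 in the differentiated group (SD, n = 7 lines). The pluripotency factor SOX2 had 8.68 ± 0.35, 8.61 ± 0.61 and 8.71 ± 0.56 in the same order.

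Averaged over the 52 genes, log2(RPM + 1) was 2.95 ± 0.39 before conversion, 4.77 ± 0.15 in the naïve-like and 2.77 ± 0.23 in the differentiated condition (SD, n = 7 lines), as the rule sets. The lowest naïve-like library stood at 4.65, the highest primed library at 3.58 and the highest differentiated library at 3.12. In bulk libraries, fewer cells that express a gene and less of its RNA per cell cannot be told apart. The mean difference from primed cells ran from 1.04 to 4.51 over the genes with a median of 1.70, and that from differentiated cells from 1.04 to 5.59 with a median of 1.77. The difference was positive in all 7 lines against primed cells for 41 genes, against differentiated cells for 47 genes and against both for 39 genes. For 19 of the 52 genes, all 7 naïve-like libraries lay above all primed libraries (2.41% of the expressed genes), and for 24 above all differentiated libraries (2.92%). For 15 of the 52 genes, all 7 naïve-like libraries lay above all primed and all differentiated libraries, where 0.865% of the expressed genes did so, and the rule used the same values. At the edge of the rule, ALAS1 had a smaller mean difference of 1.04, OXNAD1 of 1.04 and PXK of 1.07, and just outside lay LRRC16A with 0.9989, SEPSECS with 0.987 and PLS1 with 0.959.

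**Figure D1:**
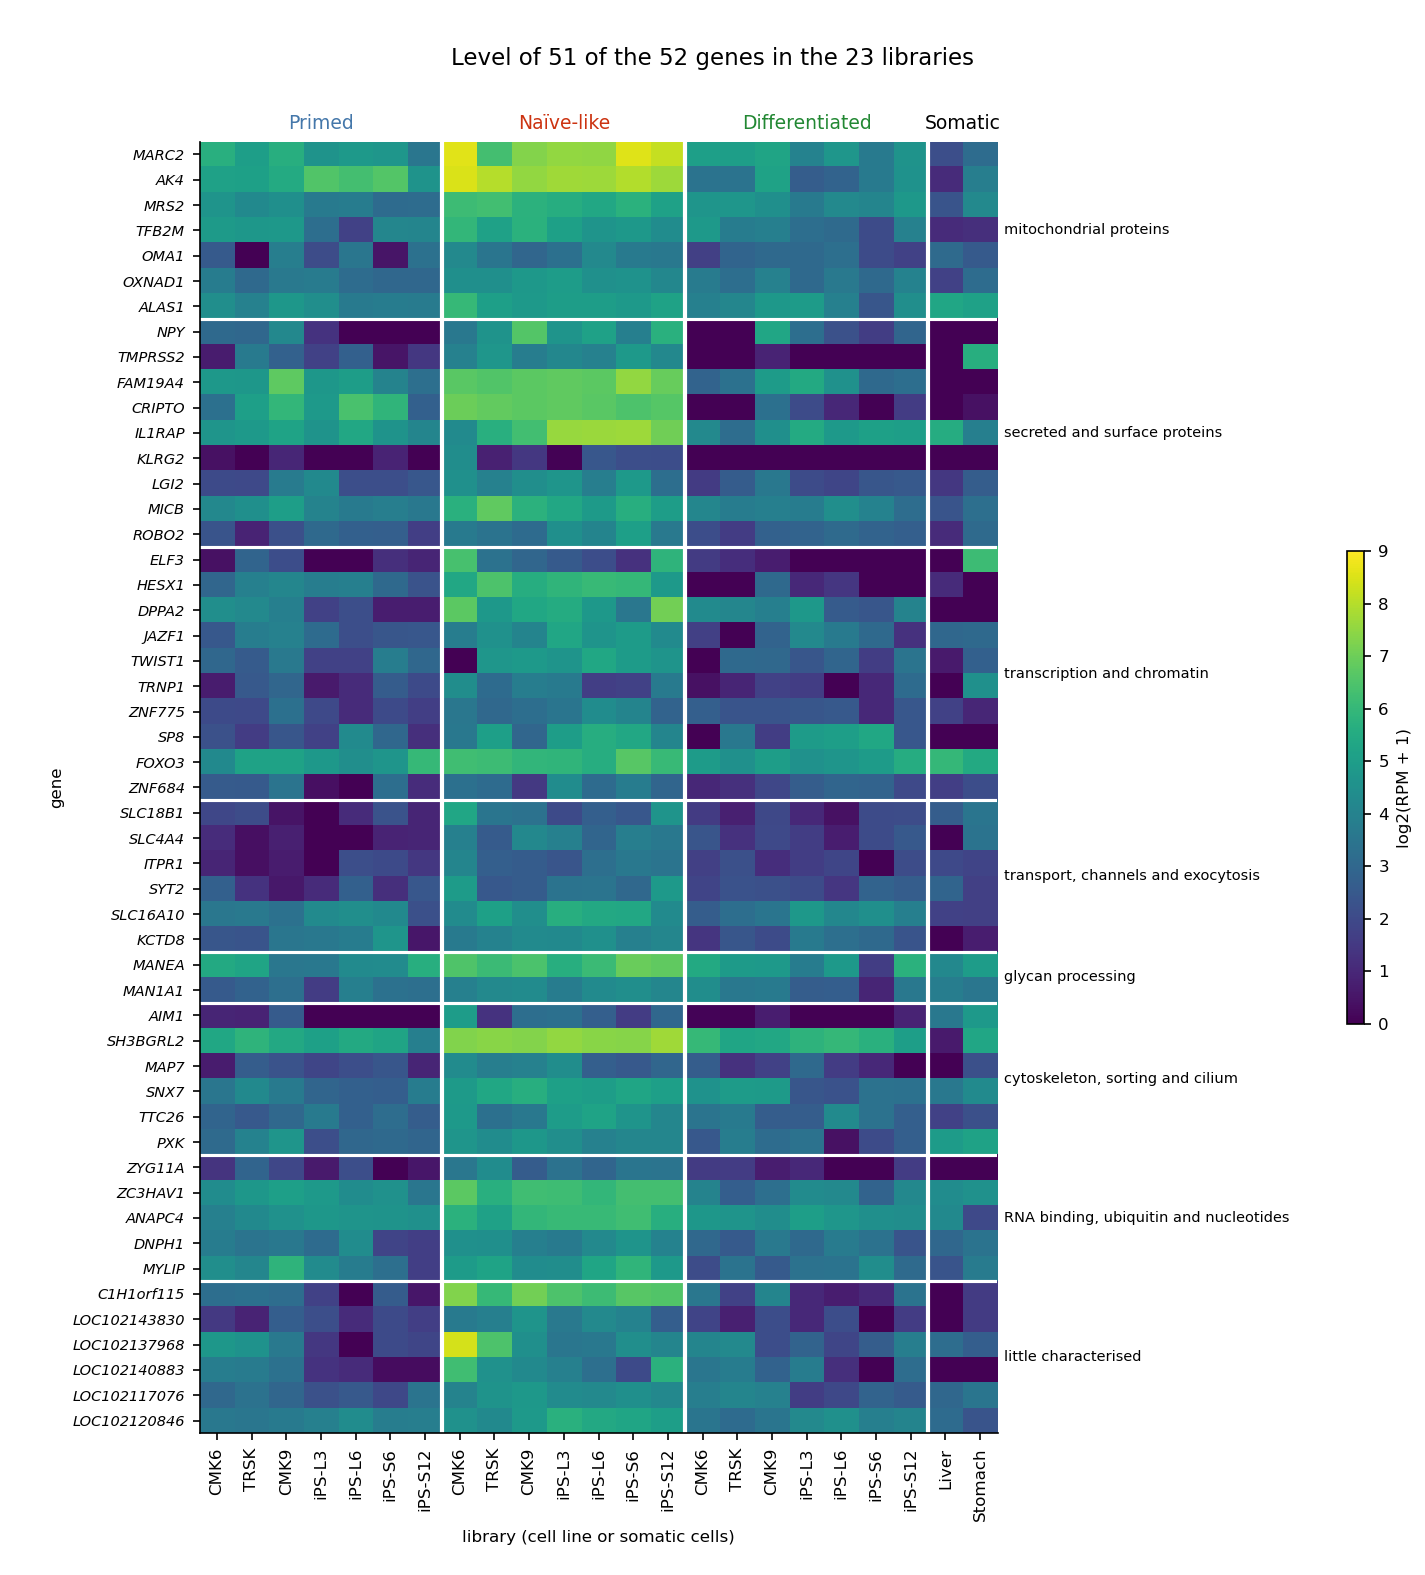
Level in log2(RPM + 1), by colour from 0 to 9, of 51 of the 52 genes (rows, grouped by known role) in the 23 libraries (columns, grouped by condition and then cell line). The 7 naïve-like columns are the brightest block in most rows, and KLRG2 is at 0 in all differentiated libraries.

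**Figure D2:**
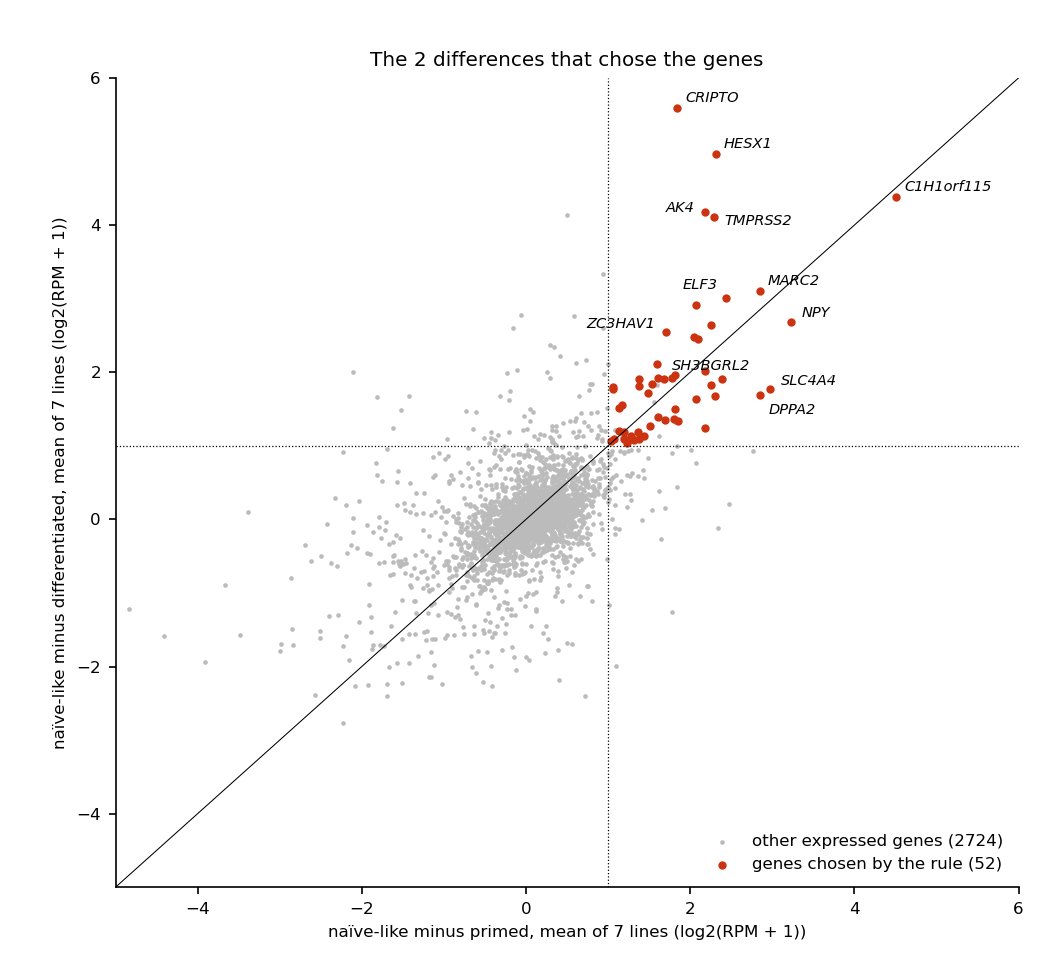
Mean difference over 7 lines of naïve-like from primed cells (x axis) and from differentiated cells (y axis), both in log2(RPM + 1), for the 2776 expressed genes, with the 52 chosen genes in red. Dotted lines mark the threshold of 1 and the diagonal marks equal differences. CRIPTO, HESX1, AK4 and TMPRSS2 lie far above the diagonal and SLC4A4 below it.

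The little-characterised gene C1H1orf115 (gene ID 102135850, the ortholog of human C1orf115) headed the list by the smaller of its 2 mean differences. It had 0 to 9.11 RPM in primed libraries (median 5.21), 64.8 to 155.1 RPM in naïve-like libraries (median 92.9) and 0.666 to 16.03 RPM in differentiated libraries (median 2.37). The naïve-like level was thus above every other PSC library in every line. The 2 mean differences were 4.51 ± 1.24 and 4.38 ± 1.13 on the log2(RPM + 1) scale (SD, n = 7 lines). Of the other 5 little-characterised genes, all listed under LOC numbers, the long noncoding RNA LOC102137968 had 342.1 RPM in naïve-like CMK6 and 88.7 RPM in naïve-like TRSK, but 10.6 to 21.6 RPM in the other 5 naïve-like lines. LOC102143830 had 5.52 to 24.2 RPM in naïve-like libraries (median 13.6), above all primed libraries (0.882 to 5.38 RPM) and all differentiated libraries (0 to 3.37 RPM). LOC102140883, a transcribed pseudogene whose reads could belong to its parent gene, had a median of 18.1 RPM in naïve-like, 1.47 RPM in primed and 8.19 RPM in differentiated libraries. The remaining 2 were LOC102117076 and LOC102120846.

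Of the 7 genes for mitochondrial proteins, MARC2 (gene ID 102136254, also called MTARC2), a molybdenum enzyme of the outer mitochondrial membrane, was the marker gene. It had 10.6 to 49.8 RPM in primed (median 27.9), 78.8 to 384.7 RPM in naïve-like (median 183.9) and 11.7 to 37.3 RPM in differentiated libraries (median 25.3). The naïve-like libraries lay above all others, and the primed and differentiated ranges overlapped. The lowest naïve-like value was that of TRSK and the highest that of CMK6. Its mean differences were 2.85 ± 1.17 from primed and 3.10 ± 1.18 from differentiated cells (SD, n = 7 lines). AK4, an adenylate kinase of the mitochondrial matrix, had a median of 44.7 RPM in primed (23.5 to 96.0), 210.5 RPM in naïve-like (183.1 to 360.1) and 9.79 RPM in differentiated libraries (5.31 to 35.01). The order of the 3 conditions was the same in each line. The others were MRS2 (a magnesium channel of the inner membrane), TFB2M (a mitochondrial transcription factor), OMA1 (an inner-membrane protease), ALAS1 (the first enzyme of haem synthesis) and OXNAD1 (an oxidoreductase). Their mean differences lay between 1.04 and 1.85 in both comparisons, and MRS2 had the largest difference from primed cells, with 7.82 to 24.0 RPM in primed, 34.5 to 76.6 RPM in naïve-like and 11.7 to 26.9 RPM in differentiated libraries. MARC1, the paralog of MARC2, was at 0.68 ± 0.57, 1.22 ± 0.94 and 0.50 ± 0.87 in log2(RPM + 1) in primed, naïve-like and differentiated libraries.

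The 9 genes for secreted and surface proteins included CRIPTO, the GPI-anchored co-receptor of NODAL, which had the largest difference from differentiated cells. It had 5.76 to 83.7 RPM in primed (median 33.2), 89.1 to 126.4 RPM in naïve-like (median 104.5) and 0 to 9.07 RPM in differentiated libraries (median 0.9986). CRIPTO was thus expressed in primed cells and was below the floor of 3 reads in 3 of the 7 differentiated libraries. Its mean differences were 1.83 ± 1.45 from primed and 5.59 ± 1.31 from differentiated cells (SD, n = 7 lines). NPY, the secreted neuropeptide Y, had 0 to 17.5 RPM in primed (median 1.47), 11.1 to 95.9 RPM in naïve-like (median 24.2) and 0 to 38.8 RPM in differentiated libraries (median 3.66). It was higher in naïve-like cells in all 7 lines, although the groups overlapped, and CMK9 was its highest line in each condition. TMPRSS2, a transmembrane serine protease, had 0.434 to 11.8 RPM in primed (median 2.35) and 12.95 to 28.0 RPM in naïve-like libraries (median 17.0), and was listed at 0 in 6 of 7 differentiated libraries, with 0.844 RPM in CMK9.

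FAM19A4 (also called TAFA4), a secreted chemokine-like peptide, had a median of 26.5 RPM in primed (8.86 to 108.2), 104.5 RPM in naïve-like (94.0 to 184.5) and 9.29 RPM in differentiated libraries (6.20 to 43.6). Primed CMK9, with 108.2 RPM, was the primed library that reached into the naïve-like range. IL1RAP, the shared co-receptor subunit of the interleukin-1 family, had 15.9 to 40.7 RPM in primed (median 24.9), 18.7 to 205.3 RPM in naïve-like (median 130.1) and 8.38 to 44.6 RPM in differentiated libraries (median 27.6). It was not higher in naïve-like than in primed cells in CMK6, where it had 24.9 RPM in primed and 18.7 RPM in naïve-like cells. The other 4 were LGI2 (a secreted leucine-rich repeat protein), ROBO2 (a SLIT receptor), MICB (a ligand of the NKG2D receptor, from a family of close copies among which reads could be split) and the lectin-like KLRG2. KLRG2 was listed at 0 in all 7 differentiated libraries, was below the floor in 6 of 7 primed libraries and reached 20.4 RPM in naïve-like CMK6, while 3 of the other naïve-like libraries were below the floor as well.

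Of the 10 genes for transcription and chromatin proteins, HESX1, a homeobox repressor of the epiblast and the anterior neural plate, had 3.99 to 16.5 RPM in primed (median 13.2) and 28.5 to 88.3 RPM in naïve-like libraries (median 58.2). It was listed at 0 in 4 of 7 differentiated libraries and reached 7.38 RPM in the highest of them, CMK9. Its mean differences were 2.31 ± 0.47 and 4.97 ± 1.26 (SD, n = 7 lines). ELF3, an epithelial ETS factor, had 81.7 RPM in naïve-like CMK6 and 57.0 RPM in naïve-like iPS-S12, and 1.46 to 9.47 RPM in the other 5 naïve-like lines. In iPS-S6, ELF3 had 1.46 RPM in naïve-like and 1.303 RPM in primed cells. Its mean difference from primed cells was 2.43 ± 2.26 (SD, n = 7 lines), with the spread between lines nearly as large as the mean. DPPA2, a chromatin protein that works with DPPA4, had 0.651 to 20.9 RPM in primed (median 3.49), 10.9 to 135.4 RPM in naïve-like (median 40.6) and 4.25 to 26.6 RPM in differentiated libraries (median 15.2). Its partner DPPA4 was no member, with 6.61 ± 0.73 in primed libraries, 6.96 ± 0.63 in naïve-like ones and 4.61 ± 0.90 after withdrawal (log2(RPM + 1), SD, n = 7 lines). TWIST1, a basic helix-loop-helix factor of mesenchyme, was listed at 0 in naïve-like CMK6 and had 24.2 to 39.9 RPM in the other 6 naïve-like lines, against 2.32 to 13.03 RPM in primed libraries. Among the other 6 were FOXO3 (a forkhead factor downstream of AKT) and SP8 (a zinc-finger factor of limb and forebrain development). The rest were the zinc-finger genes JAZF1, ZNF775 and ZNF684, and TRNP1 (a nuclear protein of neural progenitors). The mean differences of the 6 lay between 1.09 and 2.18. SP8 hardly fell on withdrawal in iPS-S6 (from 40.9 to 40.3 RPM) and iPS-L3 (from 31.3 to 29.8 RPM), and fell further in the other lines.

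The 7 genes of transport, channels and exocytosis included SLC4A4, the sodium bicarbonate cotransporter NBCe1. It had 0 to 1.23 RPM in primed (median 0.751), 4.93 to 17.3 RPM in naïve-like (median 13.4) and 0.666 to 4.68 RPM in differentiated libraries (median 2.95). Its primed level was below the floor of 3 reads in 5 of 7 lines. Its mean differences were 2.98 ± 0.54 and 1.77 ± 0.48 (SD, n = 7 lines). SLC18B1, a vesicular polyamine transporter, had a median of 1.16 RPM in primed, 9.499 RPM in naïve-like and 1.96 RPM in differentiated libraries. ITPR1, the calcium channel of the endoplasmic reticulum, had 4.15 to 16.3 RPM in naïve-like libraries, above all primed (0 to 3.49 RPM) and all differentiated libraries (0 to 3.64 RPM). SLC16A10 (an aromatic amino acid transporter), KCTD8 (a GABA-B receptor subunit) and SYT2 (a calcium sensor of exocytosis) also belonged to the group. Both genes of glycan processing encode mannosidases that trim N-glycans. MANEA had 49.5 to 122.6 RPM in naïve-like libraries (median 87.2), above all primed libraries (10.9 to 49.2 RPM). MAN1A1 had a median of 17.9 RPM in naïve-like, 8.70 RPM in primed and 11.05 RPM in differentiated libraries. In CMK6, MAN1A1 was higher after withdrawal (20.2 RPM) than in naïve-like cells (14.0 RPM).

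SH3BGRL2 (gene ID 102139872), a small protein of the thioredoxin fold and the third marker gene, had the most even naïve-like level of the 52 (SD 0.15 over 7 lines). It had 13.7 to 56.4 RPM in primed (median 40.0), 156.5 to 211.6 RPM in naïve-like (median 169.6) and 32.2 to 65.0 RPM in differentiated libraries (median 52.02). The naïve-like libraries lay above all others, while the primed and differentiated ranges overlapped, and the mean differences were 2.25 ± 0.75 and 1.83 ± 0.48 (SD, n = 7 lines). It was grouped with 5 genes of cytoskeleton, sorting and cilium, namely AIM1 (also called CRYBG1, an actin-associated protein), MAP7 (which binds microtubules), the phox-domain proteins SNX7 and PXK, and TTC26 (also called IFT56, a part of the ciliary transport machinery). AIM1 had 0 to 5.01 RPM in primed, 1.52 to 30.8 RPM in naïve-like and 0 to 0.877 RPM in differentiated libraries. The last 5 genes handle RNA, ubiquitin or nucleotides. ZC3HAV1, an antiviral protein that binds CpG-rich RNA, had 10.6 to 32.8 RPM in primed (median 22.6), 50.8 to 104.6 RPM in naïve-like (median 74.3) and 5.46 to 19.1 RPM in differentiated libraries (median 15.3), again with the naïve-like libraries above all others. ZYG11A, a substrate receptor of a cullin ubiquitin ligase, had a median of 1.54 RPM in primed, 10.1 RPM in naïve-like and 1.06 RPM in differentiated libraries. ANAPC4 (a subunit of the anaphase-promoting complex), MYLIP (the ubiquitin ligase of the LDL receptor) and DNPH1 (a nucleotide hydrolase) had differences between 1.07 and 1.80.

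**Figure D3:**
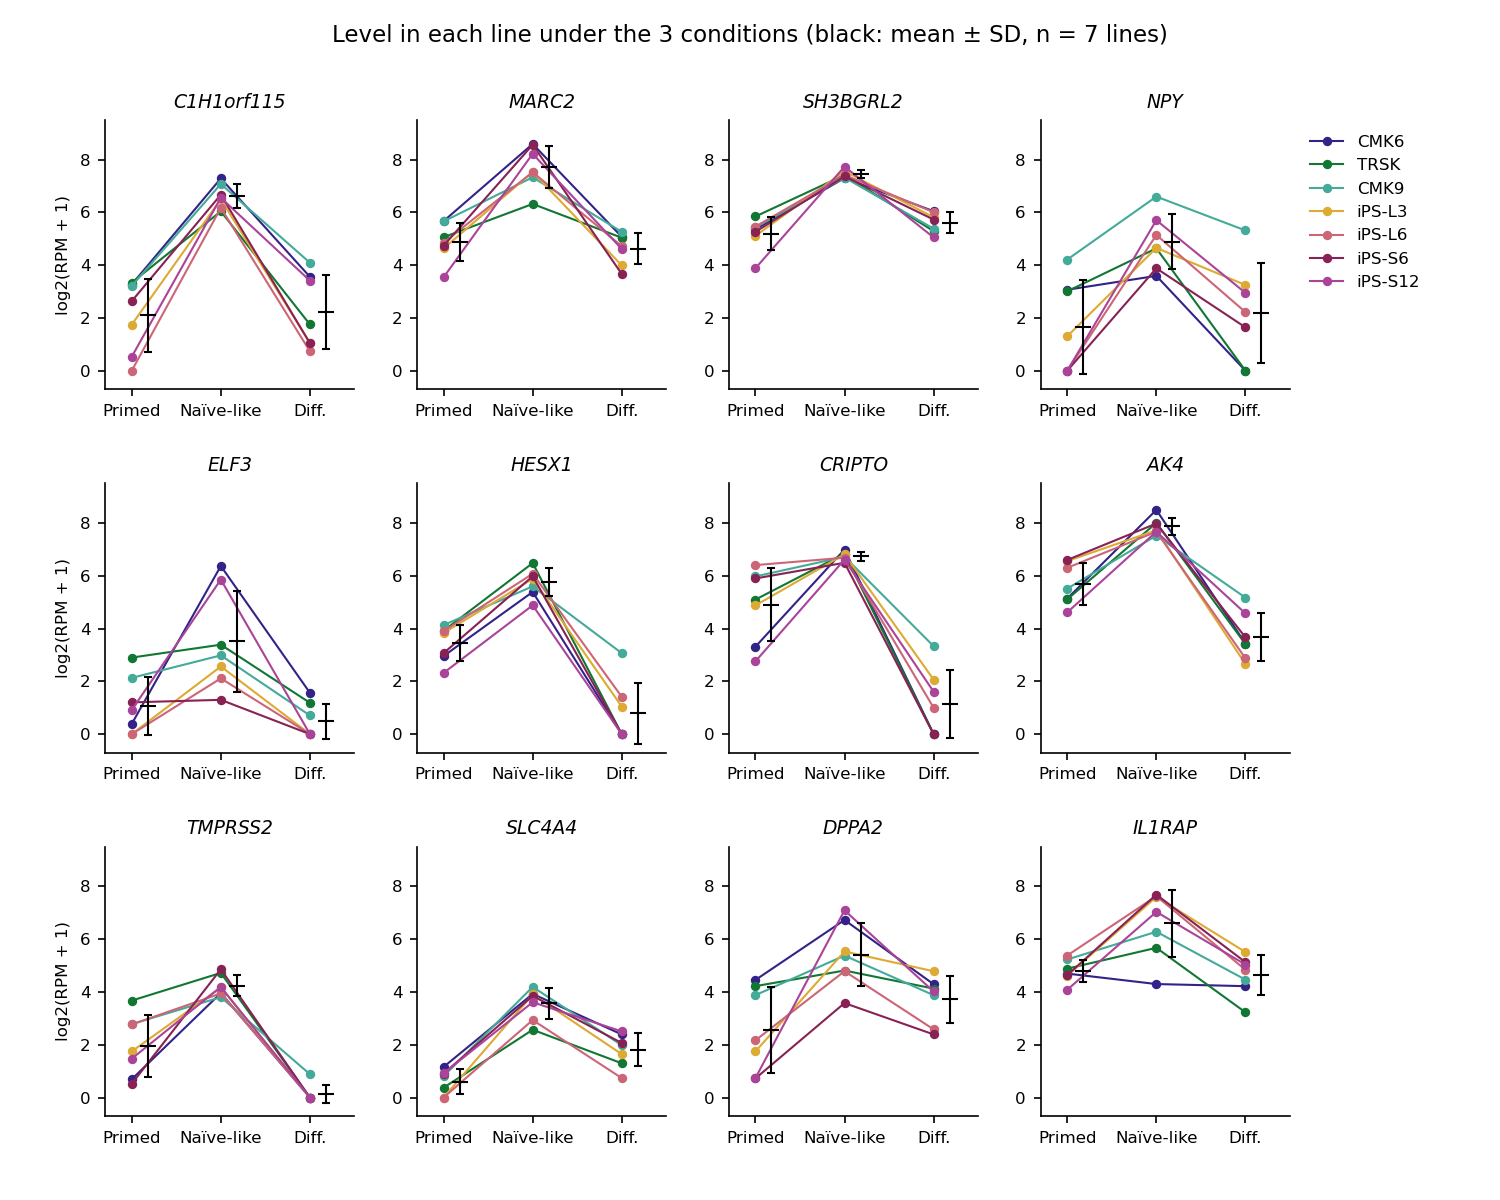
Level in log2(RPM + 1) of 12 of the genes in each of 7 lines (points joined by line) under the 3 conditions, with the mean and SD over lines in black. SH3BGRL2 and CRIPTO are even across lines in the naïve-like condition, while ELF3, NPY and IL1RAP differ widely, with IL1RAP lowest in naïve-like CMK6.

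The differentiated level was compared with the primed level to see whether withdrawal of LIF and Dox returned these genes to where they were before conversion. The mean difference of differentiated from primed cells was within 0.5 on the log2(RPM + 1) scale for 35 of the 52 genes (67.3%, against 72.9% of all expressed genes) and within 1 for 46 (88.5% against 90.8%). Its median size without regard to sign was 0.373 over the 52 genes and 0.282 over all expressed genes. Of the 52 genes, 25 were higher and 27 lower (51.9% lower, against 45.7% of all expressed genes). In limma's test, 6 of the 52 genes (11.5%) differed between differentiated and primed cells, where 13.4% of all expressed genes did. With lines as blocks the count stayed at 6 of the 52 while the share of all expressed genes was 21.1%, and at an unadjusted p under 0.05 the shares were 11.5% and 28.2%. The rule holds both levels below the naïve-like one, which restricts how far they can lie apart, but not which is lower.

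Of the 6 genes, 5 were lower after withdrawal than in primed cells (7.13% of all expressed genes were) and 1 was higher (6.27%). CRIPTO was lower by a log2 change of -3.76 (standard error 0.52, limma's adjusted p = 5.28e-05), HESX1 by -2.66 (standard error 0.42, adjusted p = 0.000151) and AK4 by -2.01 (standard error 0.34, adjusted p = 0.000316). TMPRSS2 was lower by -1.82 (standard error 0.42, adjusted p = 0.00441). These 4 genes were lower in all 7 lines, and they are the 4 of the 52 that lie farthest above the diagonal in the plot of the 2 differences. For TMPRSS2, 2 primed and 6 differentiated libraries were below the floor of 3 reads, so its direction in single lines rests in part on very few reads. ZC3HAV1 was lower by -0.84 (standard error 0.27, adjusted p = 0.0380). SLC4A4 was the 1 called gene above its primed level, by 1.21 (standard error 0.36, adjusted p = 0.0272), and it was so in all 7 lines. For SLC4A4, 5 primed and 2 differentiated libraries were below the floor of 3 reads, so its direction in single lines rests in part on very few reads. With 1 line left out, ZC3HAV1 lost the call without CMK6, TRSK, CMK9, iPS-L3 or iPS-S6 (limma's adjusted p up to 0.137), and SLC4A4 lost it without any line but TRSK or iPS-L6 (adjusted p up to 0.0850). For the markers the difference was 0.13 for C1H1orf115 (95% interval -1.03 to 1.29), -0.26 for MARC2 (-0.962 to 0.450) and 0.42 for SH3BGRL2 (-0.0195 to 0.869), none past the threshold.

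**Figure D4:**
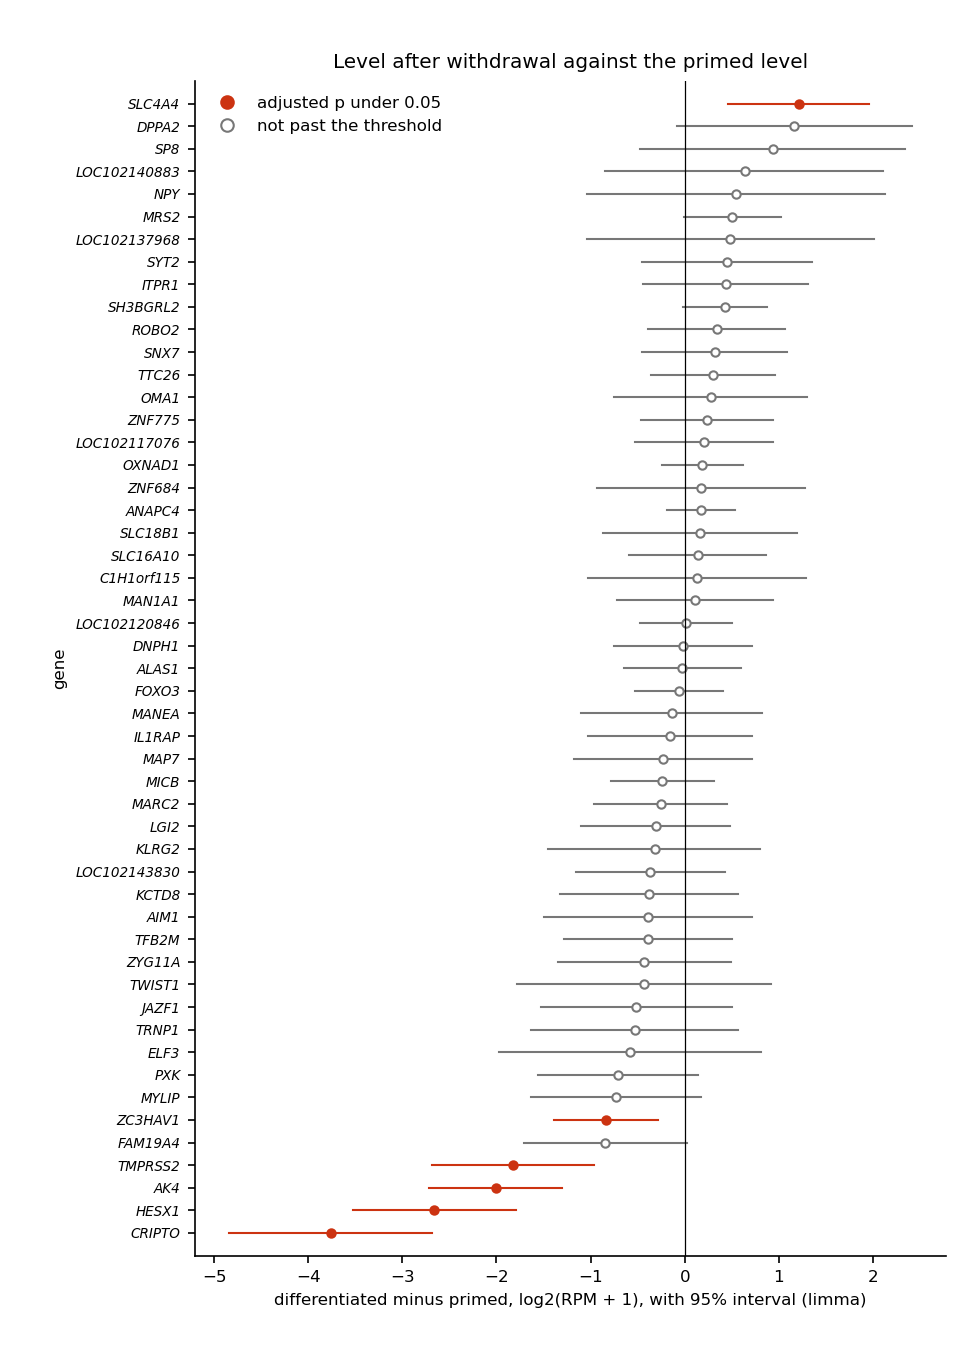
Differentiated minus primed level in log2(RPM + 1) for 51 of the 52 genes (points) with the 95% interval from limma (bars), in order of size. The 6 filled red points passed an adjusted p of 0.05, with CRIPTO at -3.76 the lowest and SLC4A4 at 1.21 the highest.

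The lines differed in how far the genes rose. The median difference from primed cells over the 52 genes was 2.09 in iPS-S12, 2.05 in iPS-L3, 1.92 in CMK6, 1.91 in iPS-S6, 1.602 in iPS-L6, 1.21 in TRSK and 1.03 in CMK9. CMK9 had the smallest rise of all lines for 17 genes and TRSK for 13. Primed CMK9 had the highest primed mean over the genes, 3.58, and primed iPS-S12 the lowest, 2.39, while their naïve-like means were 4.67 and 4.802. The difference between these lines thus lay on the primed side. Primed CMK9 was also the deepest library and iPS-S12 held 2258000 reads, and the part of depth in this was not tested. Against differentiated cells the line medians were closer, from 1.53 in CMK9 to 2.22 in CMK6. CMK6 had the highest naïve-like level of all lines for 17 genes and iPS-S6 for 11.

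**Figure D5:**
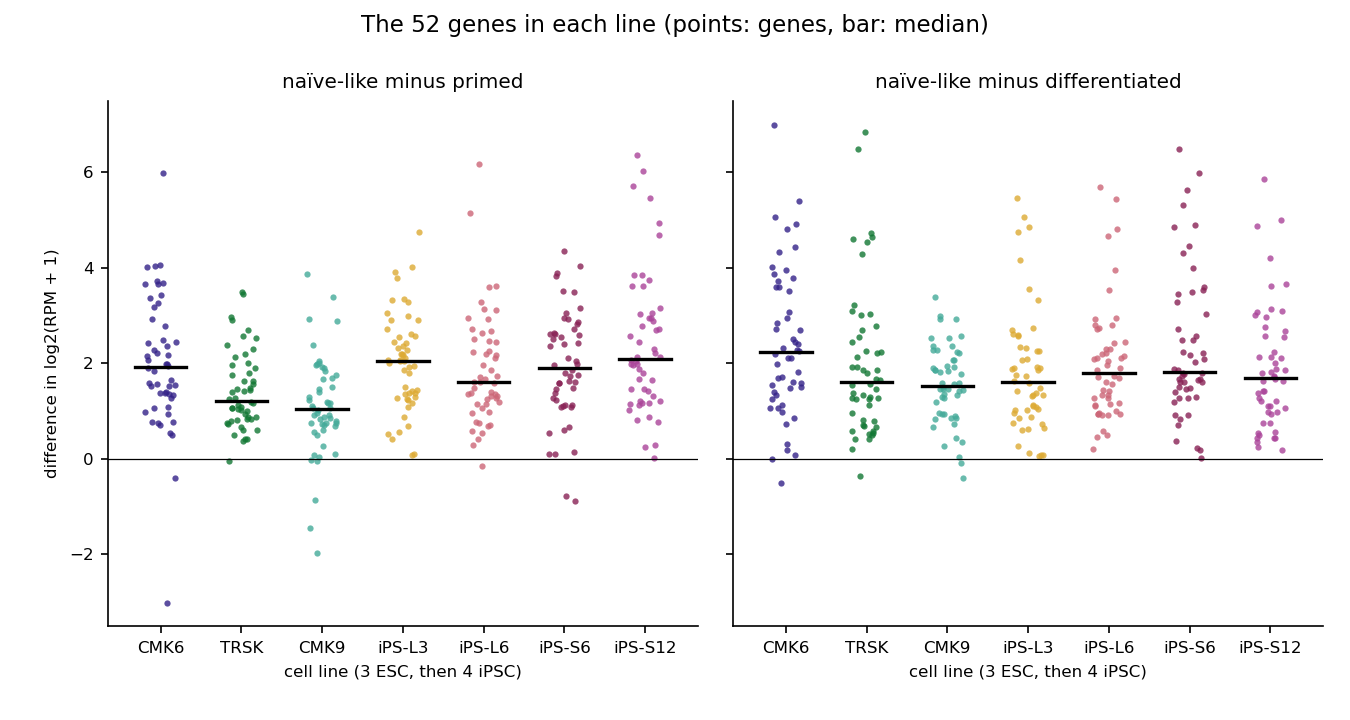
Difference in log2(RPM + 1) of naïve-like from primed (left) and from differentiated cells (right) for the 52 genes (points) in each line, with the median as a bar. The medians are lowest in CMK9 on both sides, and the lowest point is TWIST1 in CMK6 at -3.01.

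Since the rule used all 7 lines, it was repeated on 6 lines at a time (at least 5 of 6 positive) and the genes it then gave were looked up in the line left out. The 6-line rule gave 50 to 63 genes. In the line left out, 79.4% (CMK9) to 98.0% (iPS-S12) of them were higher in naïve-like cells than in both other conditions, against 31.4% to 39.2% of all expressed genes in the same lines. The median difference from primed cells in the line left out was 0.866 in CMK9 and 1.08 in TRSK, and 1.48 to 2.05 in the other 5, where the median over all expressed genes lay between -0.0438 and 0.195. The filter on expressed genes was not repeated and used all lines. A gene could thus enter through a high level in the line left out, which was not fully held out. The 2 differences also share the naïve-like library, and the iPSC lines share a donor, so these shares are given as a description.

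ESC and iPSC lines were compared because the rule averages over them. For the rise from primed to naïve-like cells, none of the 52 genes differed between the 3 ESC and the 4 iPSC lines by the interaction in limma, and 0% of all expressed genes did. At an unadjusted p under 0.05 there were 6 of the 52 genes (11.5%) and 133 of all expressed genes (4.79%). The rise was smaller in ESC lines for 36 of the 52 genes (69.2%, against 49.2% of all expressed genes). The median interaction was -0.404, against 0.00758 over all expressed genes. The 52 genes were read in the same lines and are not independent of each other. The naïve-like level itself was higher in ESC lines for 29 of the 52 genes and lower for 23 (44.2%, against 52.8% of all expressed genes). Its median difference was 0.0791, against -0.0217 over all expressed genes. The genes below 0.05 were IL1RAP, ZNF684, MARC2, DPPA2, MYLIP and NPY, and in each the rise was smaller in ESC lines. The primed mean in log2(RPM + 1) was higher in ESC lines in each as well. NPY had primed means of 3.43 in ESC and 0.326 in iPSC lines, and naïve-like means of 4.94 and 4.845. DPPA2 had 4.18 and 1.34, then 5.64 and 5.25. IL1RAP differed mainly in the naïve-like condition (5.42 and 7.49, with 4.94 and 4.68 in primed cells). In ZNF684, MARC2 and MYLIP, ESC lines were higher in primed and lower in naïve-like cells. For MARC2 the rise was 1.95 in ESC and 3.52 in iPSC lines, a difference of -1.57 (standard error 0.58, limma's adjusted p = 0.91). For the fall on withdrawal, 0 of the 52 genes and 0% of all genes passed limma's threshold, with 3 of the 52 (SNX7, LOC102117076 and MARC2) and 109 of all genes at an unadjusted p under 0.05. A rule that asks for 6 of 7 lines leaves little room for genes that respond in 1 type alone.

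Within the naïve-like condition, IL1RAP differed between the types (1 of the 52 genes, where 0.72% of all expressed genes passed limma's threshold, 0.216% as higher and 0.504% as lower in ESC lines). Among ESC lines, CMK6 had 18.7 RPM, TRSK 50.02 RPM and CMK9 76.9 RPM, and among iPSC lines, iPS-S12 had 130.1 RPM, iPS-L3 193.3 RPM, iPS-L6 197.3 RPM and iPS-S6 205.3 RPM. The ESC lines were all below the iPSC lines, by -2.07 on the log2(RPM + 1) scale (standard error 0.38, adjusted p = 0.00621). The call was lost without CMK6 (log2 difference -1.51, limma's adjusted p = 0.0628), without iPS-L3 (adjusted p = 0.0585) and without iPS-S6 (adjusted p = 0.0520). LOC102137968 came next, higher in ESC lines by 2.55 (standard error 0.71, limma's adjusted p = 0.105), and did not pass. The iPSC lines come from 1 female foetus, so the type and the donor cannot be told apart. Sex and transgenes also differ between the types, since CMK6 and TRSK are male and the DsRed transgene was used for ESC lines only.

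The rule used neither of the 2 somatic libraries, but it took genes that are low outside the naïve-like condition. The median level of the 52 genes was 2.95 in primed and 2.80 in differentiated cells, against 4.93 and 4.94 over all expressed genes, and the shares listed at 0 cannot be told apart from this gap in level. Of the 52 genes, 16 (30.8%) were listed at 0 in liver cells and 8 (15.4%) in stomach cells, against 5.76% and 3.39% of the expressed genes. NPY, FAM19A4, ZYG11A, DPPA2, LOC102140883, KLRG2 and SP8 were at 0 in both. C1H1orf115 was listed at 0 in liver and had 1.95 RPM in stomach cells, and CRIPTO was listed at 0 in liver and had 0.324 RPM in stomach cells. By contrast, ELF3 had 71.0 RPM and TMPRSS2 48.6 RPM in stomach cells and both, known from the epithelium of the gut, were at 0 in liver cells. In liver cells 3 of the 52 genes (5.77%) and in stomach cells 7 (13.5%) were above their naïve-like mean, a level that the rule had chosen to be high. Of all expressed genes, 34.3% in liver and 36% in stomach cells were above theirs. The 7 in stomach were ELF3, TMPRSS2, AIM1, SLC18B1, TRNP1, PXK and ALAS1, and the 3 in liver were AIM1, PXK and ALAS1. With 1 library each these are values without a test.

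By the gene order of the reference annotation, 49 of the 52 genes were placed, of which 12 are on chromosome 1, 10 on chromosome 2, 10 on chromosome 3, 13 on chromosome 4 and 4 on chromosome 5. Genes of the other chromosomes were for the most part not analysed here, and of the expressed genes 33.5% are on chromosome 1 and 18.3% on chromosome 4, against 23.1% and 25% of the 52. C1H1orf115 and MARC2 are neighbours with no analysed gene between them, as are ZC3HAV1 and TTC26, and KLRG2 is 3 analysed genes from TTC26. On chromosome 3, NPY, LOC102137968, SP8 and TWIST1 follow each other with 7 to 9 analysed genes between them. In all, 17 of the 49 placed genes had another of the 52 within 10 analysed genes. The share for other sets of expressed genes was not computed, so whether the 52 lie closer together than others was not tested. The nearest expressed genes on either side that were not among the 52 numbered 89, and their median difference was -0.016 from primed and 0.0817 from differentiated cells. Both differences were above 0 in 38.2% of them and in 37% of all expressed genes outside the 52. The expressed neighbours of the first pair, MARK1 and DUSP10, had differences from primed cells of -0.786 and 0.383. Of the matched genes, HESX1, SYT2, ZNF775 and OXNAD1 overlap another protein-coding gene in this annotation, so reads could be shared. Of the overlapping genes analysed here, APPL1 (on HESX1) had differences of 0.152 and 0.871, PPP1R12B (on SYT2) of 0.271 and 0.612, REPIN1 (on ZNF775) of -0.0624 and -0.391, and RFTN1 (on OXNAD1) of -0.790 and -0.338, all smaller than those of the member.

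Other genes of the signals in the medium were read from 13 lists of known markers and targets, of whose 345 genes 123 were analysed here, since the table was held in part, and 71 were expressed and outside the 52. The median difference of these 71 genes was -0.0378 for naïve-like against primed cells and -0.141 for differentiated against naïve-like cells, against 0.0619 and -0.0186 over all expressed genes. The 71 leave out the 5 listed genes among the 52, which the rule chose as high in naïve-like cells. All expressed genes include the 52, so shares and medians of the 2 sets are not on the same footing. Of the 71, 6 were higher and 12 lower in naïve-like than in primed cells by limma's test, where 11.1% of all expressed genes were higher and 8.18% lower (307 and 227 genes, or 218 and 261 with library centring). On withdrawal 5 were higher and 14 lower in differentiated than in naïve-like cells, where 6.41% and 7.71% of all expressed genes were. With lines as blocks in the fit, the second count rose from 19 to 30. Of the naïve pluripotency list, DPPA2, CRIPTO and HESX1 were members. Its 8 other expressed genes had medians of 0.559 on conversion and -1 on withdrawal. Of these, ALPL, the tissue-nonspecific alkaline phosphatase, rose on conversion by 0.69 (adjusted p = 0.0301), and POU5F1, DPPA4 and L1TD1 fell on withdrawal, by -4.14, -2.35 and -2.22 (limma's adjusted p = 1.25e-05, 0.000102 and 0.000467). POU5F1, which encodes OCT3/4, had 7.68 ± 1.21 in primed and 8.18 ± 0.78 in naïve-like libraries, and 4.04 ± 1.37 in differentiated libraries (log2(RPM + 1), SD, n = 7 lines), so it shared the fall of the 52 genes on withdrawal and not a rise past the threshold.

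The medians of the signalling lists on conversion were -0.522 (LIF and STAT3), -0.730 (FGF and ERK output), -0.957 (cAMP and CREB) and 0.0032 (Wnt), and on withdrawal 0.0139, -0.534, 0.638 and 0.606. Of the 26 LIF and STAT3 genes 4 were analysed, and of the 25 Wnt genes 5, so these lists are seen only in small part. Of the 4 expressed genes of the LIF and STAT3 list, CISH, a feedback inhibitor of cytokine signalling, rose on conversion by 1.14 (limma's adjusted p = 0.0489) and the kinase JAK1 fell by -0.79 (adjusted p = 0.0216), and 0 of 4 passed on withdrawal. Of the 6 of FGF and ERK output, 3 fell on conversion, the receptor EPHA2 by -1.62, the ETS factor ETV5 by -1.43 and the adaptor SHC1 by -0.85 (limma's adjusted p = 0.00186, 0.0246 and 0.00262). On withdrawal ETV1, ETV5 and the feedback inhibitor IL17RD fell, by -2.77, -1.68 and -1.11. Of the 5 of cAMP and CREB response, ID4 and ATF3 fell on conversion by -2.51 and -0.96 and rose on withdrawal by 1.52 and 1.25, and the phosphodiesterase PDE4B fell on withdrawal by -1.21. ATF3 stood at the threshold on conversion (limma's adjusted p = 0.05). Of the 3 of the Wnt list, 0 passed limma's threshold in either comparison.

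Of the 12 other genes of mitochondrial oxidation and lipid use, ACOX3 and CPT2, enzymes of fatty acid oxidation, and ECHDC1 rose on conversion by 1.06, 0.89 and 0.41 (limma's adjusted p = 0.00360, 0.0146 and 0.0387), and FABP3 and SDHB fell on withdrawal by -2.12 and -0.36. The list's median was 0.208 on conversion and -0.399 on withdrawal. Of the 8 other epithelial genes beside ELF3, the stem cell surface protein PROM1 rose and CLDN4 fell on conversion, by 0.94 and -1.59, and DSP, F11R and CGN, proteins of cell junctions, fell on withdrawal by -1.49, -1.44 and -0.71. Of the 6 primed pluripotency genes, LEFTY2 and CYTL1 fell on conversion by -2.11 and -1.56, and on withdrawal ETV1 fell and ZIC1 rose by 2.19. The medians were 0.152 and -0.520 for the epithelial and -0.0113 and -1.09 for the primed list.

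Markers of other cell types moved with the comparisons as well. Of the 6 fibroblast genes, S100A11 fell on conversion by -1.62, and their summed level was 289 to 1430 RPM in primed, 77.8 to 694 RPM in naïve-like and 107 to 772 RPM in differentiated libraries. Of the 3 expressed neural genes, POU3F2 and NES rose on withdrawal by 1.81 and 0.92, and the sum over the 7 analysed was 283 to 576 RPM in primed, 96.9 to 383 RPM in naïve-like and 334 to 704 RPM in differentiated libraries, with OLIG2 at 0 in all 21. Of the mesoderm list KDR fell in both steps (-1.82 and -1.66), with RIPPLY2 at 0 in all 21, and of the endoderm list NID1 fell on conversion by -1.33. Their sums over the analysed genes were 14.4 to 52.6 RPM (mesoderm) and 14.2 to 96.4 RPM (endoderm) in naïve-like libraries, against 16 to 119.7 RPM and 92.0 to 279.9 RPM in primed and 24.4 to 73.6 RPM and 98.3 to 193 RPM in differentiated libraries. Of the 5 expressed trophectoderm and amnion genes 0 passed limma's threshold in either comparison, and their list summed to 42.3 to 121 RPM in primed, 19.0 to 78.6 RPM in naïve-like and 28.2 to 132 RPM in differentiated libraries. On conversion and on withdrawal the list medians were 0.0612 and 0.430 (trophectoderm and amnion), -1.33 and 0.791 (endoderm), -0.972 and -0.384 (mesoderm), -0.476 and 0.922 (neural) and -1.38 and 0.630 (fibroblast). A sum can rest largely on 1 abundant gene. In primed, naïve-like and differentiated libraries, the mean log2(RPM + 1) was 8.4, 7.62 and 8.54 for NES, and 8.38, 6.76 and 7.07 for S100A11. The part of other cell types in the rise and the fall of the 52 genes was not tested.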

How the data were processed

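SC3-seq libraries of 21 PSC and 2 somatic samples were analysed. From 1 ng of RNA per sample, the authors sequenced 3′ ends of amplified cDNA (75 bp, single end) and deposited RPM (reads scaled to 1000000 per library), 1 column per library. The submitters' processing notes name cutadapt 1.3, TopHat 1.4.1 and Cufflinks 2.2.0. In the PSC libraries 88.4% to 93.3% of values above 0 were whole multiples of the worth of 1 read (tolerance 0.02 reads, wider for large values), which gave the depth, but too few were whole for a count test. The table was held in part (8415 genes), and 1 row with missing values was left out. Gene IDs matched the RefSeq annotation of assembly T2T-MFA8v1.1 for 5564 genes (5551 of them on chromosomes 1 to 5), which served for names (9 of the 52) and gene order only.

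Values were taken as log2(RPM + 1), so differences of low genes are understated. limma 3.58.1 in R 4.3.3 (mean-variance trend, Benjamini-Hochberg over 2776 genes) was fitted to all 21 PSC libraries, by condition or by type and condition, with Python 3.11.15, numpy 2.4.6 and pandas 2.3.3 for the rest. On simulated data it recovered 193 of 200 genes changed by 2 between differentiated and primed cells (5 false calls), among 2776 genes. For the type by condition interaction it recovered 144 of 200 (8 false calls). The simulated noise was normal and independent between libraries, with no effect of the line and no lower limit at 0, unlike the data. Lines pair the libraries by their labels, and after removal of condition means pairs of the same line had a mean correlation of 0.269 across genes, against -0.0446 for different lines.

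The genes and lists were chosen with earlier results of these data known. Genes were ranked by the smaller mean difference, and values are given for the 3 markers, the first 20 and genes called in a test, with up to 3 called genes per list. Values given for further genes were chosen after they were seen. The values of 1 of the 52 genes are not reported here by name. Promoter motifs were not searched.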

Additional observations from a re-analysis of the deposited data

Results flagged for a closer look

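Extreme libraries were sought among the 7 of each condition with Dixon's 95% criterion, which takes the distance of the most extreme library to the next one as a share of the full range. Of 63 groups (20 genes and their mean over all 52 genes, in 3 conditions) 5 passed, where chance gives about 1 in 20, or 3.15. Differentiated CMK9 was highest for TMPRSS2 (share 1.00), as the other 6 libraries were listed at 0. Primed CMK9 was highest for AIM1 (0.635), at 2.59 in log2(RPM + 1) with the next library at 0.943. Naïve-like iPS-S6 was highest for FAM19A4 (0.652), at 7.54 against 6.91. Primed iPS-S12 was lowest for SH3BGRL2 (0.626), at 3.88 against 5.11. Naïve-like CMK6 was highest in the mean over the 52 genes (0.657), at 5.09 with the next at 4.8.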

How the results depend on the processing

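The number of genes that met the rule was 52, and 50 to 63 without 1 line. It was 60 with a pseudocount of 0.1, 69 without the filter on low values, 49 with quantile normalization, 51 with library centring and 39 when all 7 lines had to be positive. It moved further with a filter of at least 7 libraries (29) and a mean difference of at least 1.5 (27). Of the 52, 35 were kept under the pseudocount, quantile normalization and centring and without each line. Over the 20 genes ranked first, 392 mean differences recomputed under these settings moved by less than 1 SD between lines, and 8 rose by more under the pseudocount of 0.1. Genes called between differentiated and primed cells numbered 6, and 4 to 6 without 1 line, with 6 under the replicate block of the cell line and 4 with 2 conditions in the fit. The interactions of type and condition gave 0 genes under every alternative. For the naïve-like level in ESC against iPSC lines, 1 gene passed, 0 to 2 without 1 line, and the block could not be fitted because each line is of 1 type. Other listed genes called on conversion numbered 18 (5 without the filter, 6 to 18 without 1 line, 6 without iPS-L3, 9 without iPS-S6 and 11 without iPS-L6) and on withdrawal 19 (7 without the filter, 30 with the block, 8 to 19 without 1 line, 8 without CMK6, 11 without iPS-S6 and 12 without TRSK). The causes were not tested. The block changed the call of no chosen gene and gave 23 other listed genes on conversion. Leaving out lines, chosen for this after seeing the data, gave 3 to 4 genes above their naïve-like mean in liver and 5 to 7 in stomach. There were 12 genes at 0 in at least 1 primed library and 16 in at least 1 differentiated library. A value of 0 means no read at the depth of that library. The part of depth in these counts was not tested, and no share over all expressed genes is given beside them.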
